A study of Drosophila melanogaster with 17 samples.

Results

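The comparison set 3 libraries labelled EC (enterocyte) against 5 libraries of intestinal progenitor cells (titled ESG), which are 8 of the 17 libraries of the series. It asks which transcripts set differentiated absorptive cells apart from their progenitors. The libraries of each group were taken by their sample titles. All 8 were labelled wild type and came from adult Drosophila melanogaster midgut at day 3. Cells carrying green fluorescent protein were sorted after Elastase digestion, about 10000 per library, and their RNA was amplified. The labels name neither the Gal4 driver behind the fluorescence nor the sex of the flies. The labels of the 3 EC libraries conflict, with enterocyte in the title and the cell type field and enteroblast in the source name. They are therefore called EC libraries here, and markers were examined first. The 3 libraries of enteroendocrine cells (EE, same genotype and age) served only as a side comparison.

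Enterocytes are the large absorptive cells of the fly midgut. They secrete proteases, amylases and lipases into the lumen, take up sugars, lipids and metals through an apical brush border, and release amidases that break down bacterial peptidoglycan. They arise from intestinal stem cells through enteroblasts, in which Notch signalling is active, and the progenitor pool is kept by receptor pathways such as EGF receptor, JAK/STAT, Wingless, BMP and Hippo signalling. Hormone-secreting enteroendocrine cells form the other differentiated lineage.

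Values are RPKM (reads per kilobase of gene, scaled to library size) after median-of-ratios scaling over the 10069 features above 0 in all 8 libraries, and fold changes are differences of log2(scaled RPKM + 1), EC minus progenitor, which understates the change of genes of low level. The implied read totals, in units of 1000000 reads, were 24.1 to 27 for the progenitors, 26.8 and 26 for EC replicates 1 and 2, and 59.5 for EC replicate 3. EC replicates 1 and 2 correlated at 0.957 (Pearson's r over the genes tested), and EC replicate 3 correlated with them at 0.910 to 0.939. EC replicate 3 also lay closer to the progenitors (0.847 to 0.912) than EC replicate 2 did (0.776 to 0.848). Progenitor replicates 4 and 5 correlated at 0.980 with each other and at 0.907 to 0.938 with replicates 1 to 3. Whether the replicates came from separate flies is not stated, so p-values measure the spread between these libraries.

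Both given enterocyte markers were far above the progenitors. The transcript of Amy-p, a secreted amylase (chromosome 2R, 17118636 to 17120303 in the Ensembl annotation of BDGP6), was at a scaled RPKM of 73.2, 278 and 49 in EC replicates 1 to 3 and 1.31, 3.2, 4.03, 0.427 and 0.355 in progenitor replicates 1 to 5. PGRP-SC2, a secreted peptidoglycan amidase (chromosome 2R, 8716950 to 8717695), was at 197, 455 and 31.6 in EC replicates 1 to 3 and 1.64, 0.844, 7.62, 0.083 and 0.233 in progenitor replicates 1 to 5. For neither gene did the groups overlap (Amy-p log2 fold change 5.35, SE 0.60, adjusted p = 0.00059; PGRP-SC2 log2 fold change 6.0, SE 0.85, adjusted p = 0.00153, limma). Other genes often used to mark enterocytes went the other way or were spread out. Myo31DF, an unconventional myosin of the brush border whose promoter drives a common enterocyte Gal4 line, was at 31.7, 19.3 and 44.4 in EC replicates 1 to 3 and 49.7, 64.9, 47.5, 79.1 and 86.6 in progenitor replicates 1 to 5, lower in every EC library, and did not pass the test (log2 fold change -1.06, SE 0.31, adjusted p = 0.0287). The transcription factor nub (Pdm1) was at 1.11 to 6.65 in the EC libraries and 0.825 to 2.98 in the progenitors, and its groups overlapped. Amy-p stayed called whichever single library was left out, and PGRP-SC2 was lost only without EC replicate 1. Amy-p and PGRP-SC2 thus separated the groups as the enterocyte label has it, whereas Myo31DF was lower in every EC library and nub overlapped. Of other enterocyte genes given below, betaTry was higher in every EC library, and Jon65Aiv and Mal-A1 overlapped. The enterocyte markers chosen are not all given here, so this check is partial.

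Markers of other cells were counted in the same way. None of the 6 hemocyte genes and none of the 7 fat body and yolk genes reached the level needed for testing, with sums per library of 0.110 to 0.136 (EC) and 0.0175 to 0.723 (progenitor) for hemocytes and of 0.677 to 2.36 and 0.235 to 0.853 for fat body and yolk. Of 17 visceral muscle genes 4 were tested and none was called (12.2% of all genes tested were), and the sum over the list was 71 to 187 in EC and 67.3 to 111 in progenitors. The muscle genes Mlc2 (myosin light chain) and up (troponin T) were above the progenitor range in each EC library, at 1.13 to 4.04 against 0.335 to 0.881 and at 1.01 to 8.51 against 0.171 to 0.634 scaled RPKM. Both were under 1 in every progenitor. They reached the level needed for testing through the EC libraries alone, which fixed their direction and the lack of overlap. The enteroendocrine list summed to 1294 to 4447 in EC and 5109 to 11591 in progenitors. The part of these levels in the results below was not tested. In bulk samples, fewer cells of a type and less RNA per cell cannot be told apart.

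In all, 7721 genes were tested. The EC libraries were called higher for 519 of them (6.72%) and lower for 423 (5.48%), a call needing an adjusted p under 0.01 together with a log2 difference of more than 0.5 either way. Together these are 12.2% of the genes tested. The groups did not overlap for 2579 genes (33.4%), which included every called gene. The EC libraries lay wholly above for 15.5% of the genes tested and wholly below for 17.9%. The median fold change over all genes tested was -0.05. Without the scaling it was -0.46 and the calls became 276 higher and 1280 lower. Scaling to the reads outside ribosomal protein and small RNA genes shifted the median to -0.42, with 291 higher and 956 lower, and quantile normalization gave a median of -0.13 with 379 and 461. All changes here are therefore relative to most genes. Of the 942 called genes 846 could be tested with only 2 EC libraries, since the filter needed 3 libraries at a scaled RPKM of 1. The counts also rested on single libraries, since 68 and 43 genes were called without EC replicate 1, 98 and 70 without EC replicate 2, and 633 and 523 without EC replicate 3. Leaving out progenitor replicates 1, 2, 4 or 5 gave 225 to 287 higher and 147 to 203 lower, and leaving out replicate 3 gave 410 and 350. No gene called with all 8 libraries changed sign under any of the alternatives. The groups of called genes did not overlap, so leaving out libraries or changing weights, filters or thresholds could hardly reverse a sign. Of the called genes, 55 higher and 39 lower stayed called in each of the 8 fits that left out 1 library. Among these were Amy-p, Npc2a, GstE2, kdn, Cyp6w1, ND-B12, UQCR-Q, COX7C and RpLP1 (higher) and NPF, tkv, FucTA, antr, Cyp4p2, Ugt304A1 and SCAR (lower).

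**Figure D1:**
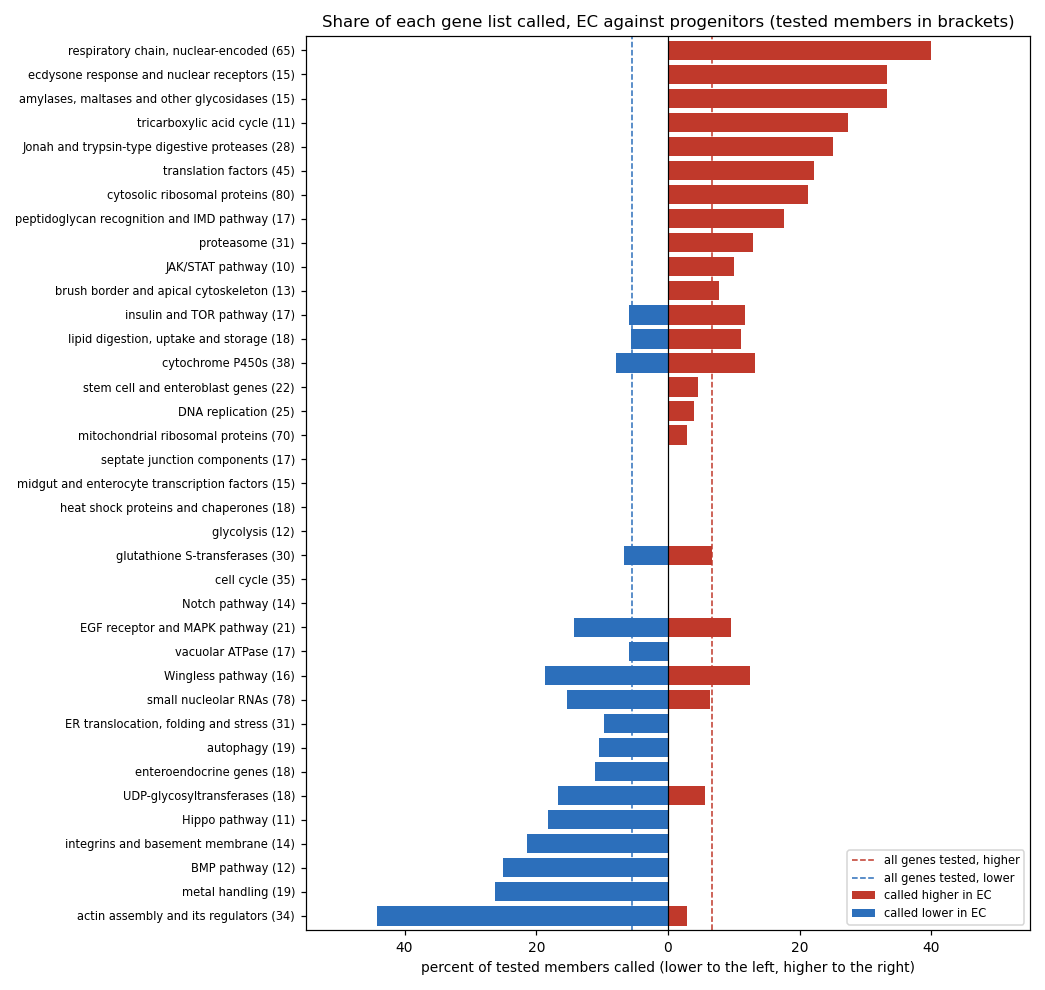
Percent of the tested members of each gene list that were called higher (red, to the right) or lower (blue, to the left) in the EC libraries, for lists with at least 10 tested members. Dashed lines mark the shares over all genes tested, 6.72% higher and 5.48% lower. The respiratory chain list reaches furthest to the right and the actin list, assembled after values were seen, furthest to the left.

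Part of the digestive enzymes rose in the EC libraries. Of 32 Jonah and trypsin-type proteases, the serine proteases of the gut lumen, 28 were tested. All 28 of these had a positive fold change (median 2.99, against -0.05 over all genes tested), and the EC libraries lay wholly above the progenitors for 12 (15.5% of all genes tested). The 7 that rose were alphaTry, Jon74E, kappaTry, iotaTry, lambdaTry, etaTry and Try29F, and none fell, where 6.72% of all genes tested rose. Trypsin alphaTry (chromosome 2R, 11344260 to 11345119) was at 331, 1848 and 722 in EC replicates 1 to 3 and 77.7, 45.7, 103, 4.36 and 6.43 in progenitor replicates 1 to 5, and its groups did not overlap (log2 fold change 4.8, SE 1.0, adjusted p = 0.00736). Jon74E, a chymotrypsin-like protease, was at 20.6, 36.2 and 145 in EC replicates 1 to 3 and 10.3, 1.36, 2.92, 1.06 and 0.717 in progenitor replicates 1 to 5, again without overlap (log2 fold change 3.91, SE 0.70, adjusted p = 0.0041). Several proteases of high level did not pass the test, and their progenitor libraries were unequal. Thus betaTry was at 165, 766 and 300.1 in EC replicates 1 to 3 and 78.9, 13.3, 39.2, 1.48 and 0.877 in progenitor replicates 1 to 5 (adjusted p = 0.0124) and Jon65Aiv, whose groups overlapped, at 187 to 1787 in the EC libraries and 6.97 to 261 in the progenitors (adjusted p = 0.0761).

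The spread among progenitors had a pattern. Summed over the protease list, the level was 721, 827 and 1106 in progenitor replicates 1 to 3 but 42.3 and 34.6 in replicates 4 and 5, against 1954, 7475 and 4455 in the EC libraries. Every EC library was thus above every progenitor library by this sum, and the 5 progenitors fell into a high and a low set. Whether the digestive transcripts in progenitor replicates 1 to 3 came from other cells was not tested. The number of proteases called was 0 without EC replicate 1, 0 without EC replicate 2, and 3 to 12 without any other single library, while the median stayed between 2.53 and 3.82.

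Enzymes of carbohydrate digestion also rose in part. Of 15 amylases, maltases and other glycosidases tested, all 15 had a positive fold change (median 2.21). Mal-B1, under a scaled RPKM of 1 in every progenitor, passed the filter through the EC libraries alone, which fixed its sign. 5 rose, namely Amy-p, Amy-d, Mal-A6, Mal-B1 and Mal-A5 (6.72% of all genes tested rose), and the EC libraries lay wholly above the progenitors for 9 (15.5% of all genes tested). On the deposited scale 3 rose. The second amylase gene Amy-d was at 8.08, 25.3 and 5.41 in EC replicates 1 to 3 and 0.30, 0.969, 2.08, 0.0772 and 0.108 in progenitor replicates 1 to 5 (log2 fold change 2.88, SE 0.48, adjusted p = 0.0031). The maltase gene Mal-A6 was at 21.1, 58.7 and 46.4 in EC replicates 1 to 3 and 8.9, 13.5, 9.65, 2.5 and 1.82 in progenitor replicates 1 to 5 (log2 fold change 2.53, SE 0.56, adjusted p = 0.00929). Mal-B1, another maltase, was near 0 in every progenitor (4.4 to 6.15 in the EC libraries and 0.0192 to 0.106 in the progenitors), with the smallest error of the group (log2 fold change 2.55, SE 0.17, adjusted p = 7.87e-05). Mal-A1 overlapped between the groups, at 22.4 to 88.6 in the EC libraries and 0.21 to 24 in the progenitors (adjusted p = 0.0455). The number of glycosidases called was 1 without EC replicate 1, 1 without EC replicate 2, and 3 to 6 without any other single library.

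For lipids, 2 members rose and 1 fell of 18 tested, with a list median of 0.02 (6.72% of all genes tested rose and 5.48% fell). Npc2a, which binds sterols, was at 537, 756 and 622 in EC replicates 1 to 3 and 97.8, 84, 138, 149 and 107 in progenitor replicates 1 to 5 and was tightly grouped on both sides (log2 fold change 2.48, SE 0.25, adjusted p = 0.000399). Magro (mag), a secreted gut lipase, was at 19.4, 17.3 and 19.1 in EC replicates 1 to 3 and 0.935, 0.602, 9.89, 1.32 and 0.73 in progenitor replicates 1 to 5 (log2 fold change 2.88, SE 0.55, adjusted p = 0.00554). Lpin, a phosphatidate phosphatase of fat synthesis, fell, at 8.0 to 13.6 in the EC libraries and 24.9 to 31.5 in the progenitors (log2 fold change -1.25, SE 0.23, adjusted p = 0.00484). Npc2a stayed called whichever single library was left out, mag only without progenitor replicate 3, and Lpin only without EC replicate 3 or progenitor replicate 3. Among other surface functions, moesin (Moe), which links actin to the membrane, rose (154 to 206 in the EC libraries and 29.97 to 67.7 in the progenitors; log2 fold change 2.0, SE 0.28, adjusted p = 0.00149) as the single call of 13 brush border genes, lost without EC replicate 1. That share of 7.69% was near the 6.72% over all genes tested. The chitinase Cht9 rose as the single call of 7 peritrophic matrix genes, where 6.72% of all genes tested rose (4.27 to 6.86 in the EC libraries and 0.33 to 2.35 in the progenitors; log2 fold change 1.52, SE 0.31, adjusted p = 0.00693), and it stayed called only without progenitor replicate 3. None of 17 septate junction genes was called, where 12.2% of all genes tested were (median -0.24).

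**Figure D2:**
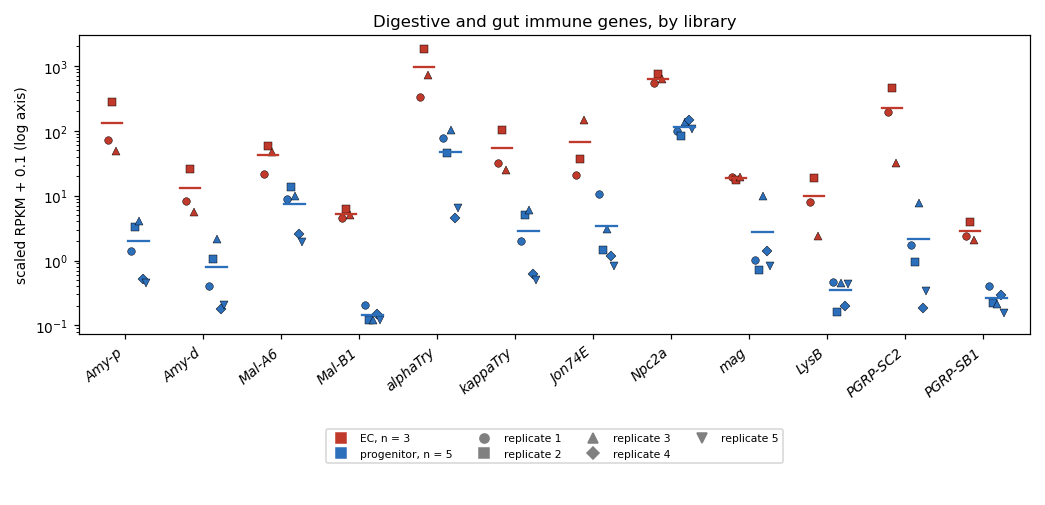
Scaled RPKM plus 0.1 (log axis) of digestive and gut immune genes in each library, with EC in red (n = 3) and progenitors in blue (n = 5). Symbols give the replicate and horizontal lines the group mean. For all genes shown the EC libraries lie above the progenitors, and progenitor replicates 4 and 5 are the lowest for the amylases and trypsins.

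Gut immune effectors were raised in part. Of 17 peptidoglycan recognition and IMD (immune deficiency) pathway genes, the 3 called were all amidase-type recognition proteins and all rose (6.72% of all genes tested rose). Besides PGRP-SC2, PGRP-SB1 was at 2.32, 3.86 and 1.99 in EC replicates 1 to 3 and 0.309, 0.119, 0.115, 0.199 and 0.0559 in progenitor replicates 1 to 5 (log2 fold change 1.65, SE 0.20, adjusted p = 0.000824) and PGRP-SC1b at 1.36, 2.19 and 2.48 in EC replicates 1 to 3 and 0.0195, 0, 0.109, 0.0188 and 0 in progenitor replicates 1 to 5 (log2 fold change 1.53, SE 0.18, adjusted p = 0.00074). Of the other 14 members, pirk and key lay wholly below the progenitor range without passing the test. The IMD inhibitor pirk was at 56.2 to 58.1 in the EC libraries and 74.3 to 263 in the progenitors (adjusted p = 0.0161) and key, a subunit of the fly IKK complex, at 6.46 to 20.1 in the EC libraries and 22.9 to 57.8 in the progenitors (adjusted p = 0.0105). The list median was 0.05. Rises in this list numbered 0 without EC replicate 1, 1 without EC replicate 2, and 1 to 3 without any other single library. Falls appeared under some settings, 2 without EC replicate 3, 1 without progenitor replicate 2 and 1 without progenitor replicate 3. There were also 2 falls on the deposited scale and 2 after quantile normalization. PGRP-SB1 and PGRP-SC1b could not be tested with 2 EC libraries, since their progenitor levels were under 1 and the filter needed 3 libraries. They passed the filter through the EC libraries alone, which fixed their sign.

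Lysozymes, which gut cells secrete to digest bacterial walls, included 2 calls among 4 tested, and all 4 had positive fold changes (median 2.27; 6.72% of all genes tested rose). LysB was at 7.89, 18.8 and 2.28 in EC replicates 1 to 3 and 0.368, 0.0606, 0.353, 0.101 and 0.342 in progenitor replicates 1 to 5 (log2 fold change 2.75, SE 0.46, adjusted p = 0.003) and LysE at 3.0 to 5.56 in the EC libraries and 0.124 to 1.55 in the progenitors (log2 fold change 1.75, SE 0.30, adjusted p = 0.00353). Of 19 antimicrobial peptide genes matched, 4 were tested and the drosomycin-like genes Drsl2 (5.11 to 37.3 in the EC libraries and 0.432 to 1.36 in the progenitors; log2 fold change 2.9, SE 0.49, adjusted p = 0.00314) and Drsl6 (1.05 to 2.38 in the EC libraries and 0.0929 to 0.574 in the progenitors; log2 fold change 0.96, SE 0.22, adjusted p = 0.00997) rose, where 6.72% of all genes tested rose. Irc, a catalase linked to gut immunity and named after its values were seen, was at 16.3, 26.7 and 14.6 in EC replicates 1 to 3 and 2.5, 3.52, 1.17, 2.7 and 1.88 in progenitor replicates 1 to 5 (log2 fold change 2.59, SE 0.29, adjusted p = 0.000589). Irc stayed called whichever single library was left out, LysE was lost without EC replicate 1 or 2, Drsl2 without EC replicate 1, and Drsl6 without each single progenitor. LysB and Drsl6 could not be tested with 2 EC libraries, for the reason given above. They too passed the filter through the EC libraries alone, which fixed their sign.

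Of the lists with at least 10 tested members, the respiratory chain held the largest share of rises. Of 65 nuclear-encoded respiratory chain genes tested, 64 had a positive fold change, 26 were called higher and none lower (background 6.72%). Their median was 1.04. The EC libraries lay wholly above the progenitors for 42 of the 65 (15.5% of all genes tested). The median was 0.54 on the deposited scale and 0.54 after quantile normalization, positive in each case, but the number called dropped to 12 and 10. The called genes included subunits of complexes I, III and IV and of ATP synthase. ND-B12, a complex I subunit, was at 177, 381 and 130.4 in EC replicates 1 to 3 and 34.5, 34.4, 30.6, 29 and 21.1 in progenitor replicates 1 to 5 (log2 fold change 2.77, SE 0.34, adjusted p = 0.000823). ND-75, the largest complex I subunit, was at 113, 121 and 59.3 in EC replicates 1 to 3 and 28.1, 21.5, 20.3, 18.6 and 15.7 in progenitor replicates 1 to 5 (log2 fold change 2.13, SE 0.29, adjusted p = 0.00122). Complex III subunit UQCR-Q was at 208 to 388 in the EC libraries and 30.3 to 71.4 in the progenitors (log2 fold change 2.41, SE 0.31, adjusted p = 0.00104) and complex IV subunit COX7C at 294 to 577 in the EC libraries and 50.6 to 94.5 in the progenitors (log2 fold change 2.37, SE 0.29, adjusted p = 0.000823). The number called was 5 without EC replicate 1, 7 without EC replicate 2, and 9 to 19 without any other single library.

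The tricarboxylic acid cycle, a list assembled after values were seen and so given as description, held 3 rises among 11 genes tested (6.72% of all genes tested rose), of which 1 was called on the deposited scale and 1 after quantile normalization. Citrate synthase (kdn), which starts the cycle, was at 117, 277 and 117 in EC replicates 1 to 3 and 13, 11.9, 10.2, 8.56 and 9.57 in progenitor replicates 1 to 5, with no overlap (log2 fold change 3.77, SE 0.31, adjusted p = 0.000158). Mitochondrial malate dehydrogenase Mdh2 was at 565 to 621 in the EC libraries and 184 to 301 in the progenitors (log2 fold change 1.23, SE 0.22, adjusted p = 0.00444), and the isocitrate dehydrogenase subunit Idh3b at 46.4 to 66.9 in the EC libraries and 16.7 to 31.4 in the progenitors (log2 fold change 1.35, SE 0.25, adjusted p = 0.00505). Without EC replicate 1 or 2 only kdn was called. The list median of 0.31 became -0.19 on the deposited scale and -0.27 after quantile normalization. None of 12 glycolysis genes was called, where 12.2% of all genes tested were (median -0.02). The difference between the respiratory and glycolytic lists was not tested. Among vacuolar ATPase genes, the proton pump of acidic compartments, 1 of 17 was called (5.48% of all genes tested fell), and Vha68-1 fell (0.531 to 2.02 in the EC libraries and 4.78 to 6.53 in the progenitors; log2 fold change -1.49, SE 0.26, adjusted p = 0.0035), a call lost without EC replicate 1 or 2.

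Part of the translation genes rose relative to most genes. Of 80 cytosolic ribosomal protein genes tested, 17 rose (6.72% of all genes tested rose), none fell, and 76 had a positive fold change. On the deposited scale 8 were called and after quantile normalization 4. The median of 0.80 shrank to 0.30 on the deposited scale and to 0.03 after quantile normalization, so its size depended on the scaling. RpLP1, an acidic stalk protein of the large subunit, was at 5893, 7123 and 7329 in EC replicates 1 to 3 and 1850.3, 1326, 2009, 1352 and 1156 in progenitor replicates 1 to 5 (log2 fold change 2.16, SE 0.25, adjusted p = 0.00064). RpL28 was at 3213 to 8923 in the EC libraries and 982 to 1809 in the progenitors (log2 fold change 2.2, SE 0.35, adjusted p = 0.00233), RpL37-1 at 798 to 2392 in the EC libraries and 291 to 407 in the progenitors (log2 fold change 2.04, SE 0.33, adjusted p = 0.00262) and RpL14 at 1845 to 5132 in the EC libraries and 623 to 1209.8 in the progenitors (log2 fold change 1.82, SE 0.36, adjusted p = 0.0059). The number called was 1 without EC replicate 1, 2 without EC replicate 2, and 6 to 22 without any other single library.

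Among translation factors, 10 of 45 rose (6.72% of all genes tested rose) and none fell. On the deposited scale 2 were called and after quantile normalization 2, and the list median of 0.46 turned to -0.01 on the deposited scale and -0.11 after quantile normalization. The poly(A) binding protein gene pAbp was at 6306, 10546 and 1734 in EC replicates 1 to 3 and 731, 391, 635, 339 and 403 in progenitor replicates 1 to 5 (log2 fold change 3.35, SE 0.52, adjusted p = 0.00221). The initiation factor genes eIF4H1 (2.07 ± 0.46, log2 fold change ± SE), eIF3k (1.52 ± 0.32) and eIF3c (1.5 ± 0.24) rose too. Mitochondrial ribosomal proteins had 2 calls among 70, below the background share, namely mRpS6 (2.02 ± 0.42) and mRpL9 (1.75 ± 0.33), and their median of 0.29 was -0.17 on the deposited scale. Of 31 proteasome genes, which degrade tagged proteins, 4 rose (median 0.56; 6.72% of all genes tested), namely Prosalpha3 (153 to 201 in the EC libraries and 46.4 to 76.3 in the progenitors; log2 fold change 1.56, SE 0.23, adjusted p = 0.00175), Prosalpha2 (1.48 ± 0.25), Rpt1 (1.08 ± 0.24) and Prosalpha6 (0.99 ± 0.22). Translation factor calls numbered 1 without EC replicate 1, 1 without EC replicate 2, and 2 to 7 without any other single library, and proteasome rises 0 without EC replicate 1, 1 without EC replicate 2, and 1 to 5 without any other single library. Proteasome rises were 1 on the deposited scale and 2 after quantile normalization. In that list 1 gene was called lower without EC replicate 3 and 1 on the deposited scale. No mitochondrial ribosomal protein was called without EC replicate 1 or 2 or without progenitor replicate 2, 4 or 5.

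Transcript length moved with these results. When tested genes were ranked by exonic length into 4 equal bins, in the shortest bin (30 to 1138 bases) the median fold change was 0.33 with 10.9% called higher and 2.38% lower, and in the next 3 bins the medians were -0.04, -0.24 and -0.17, with up to 5.71% higher and up to 8.51% lower. The median exonic length was 871 bases for the respiratory chain list, 921.5 for cytosolic ribosomal proteins, 904 for the proteases and 1393 for the proteasome, whereas it was 4553.5 for the Notch list and 4746 for the Wingless list. The part of length in these rises and falls was not tested.

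**Figure D3:**
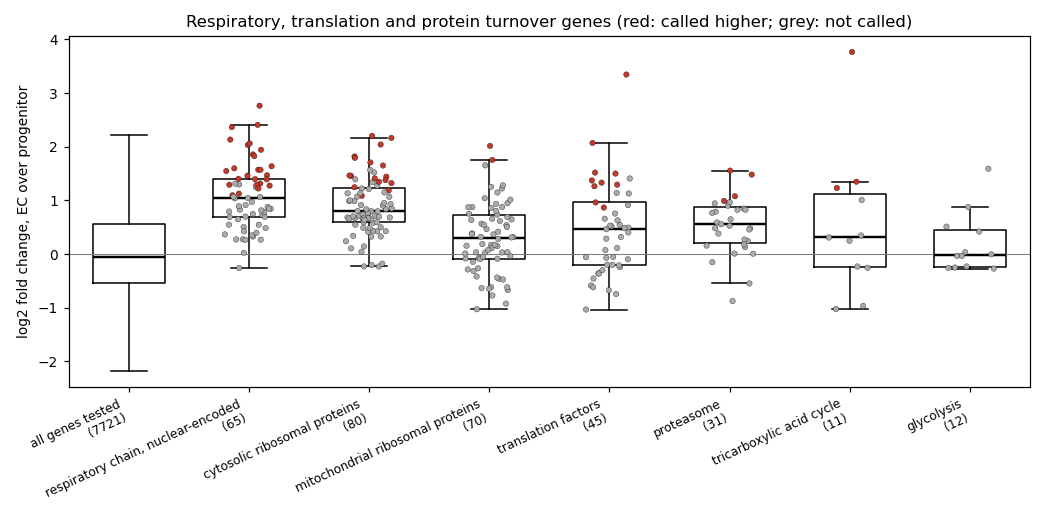
Log2 fold change (EC over progenitor) of every tested member of 7 lists beside all 7721 genes tested. Boxes give the quartiles and the median, whiskers reach the furthest value within 1.5 times the box, and red points were called higher. The respiratory chain median lies at 1.04 and that of cytosolic ribosomal proteins at 0.80, against -0.05 for all genes.

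A few enteroendocrine transcripts were lower in the EC libraries than in the progenitors. Of 18 such genes tested, 2 fell (5.48% of all genes tested fell), none rose and 7 lay wholly below the progenitor range (17.9% of all genes tested; median -0.50). The neuropeptide gene NPF was at 1249.5, 378 and 405 in EC replicates 1 to 3 and 5415, 4612, 6467, 2997 and 4350.3 in progenitor replicates 1 to 5, lower in each EC library (log2 fold change -3.0, SE 0.41, adjusted p = 0.00129). Rab3, a GTPase of secretory vesicles, was at 1.45, 0.567 and 2.31 in EC replicates 1 to 3 and 7.07, 6.26, 9.76, 9.65 and 6.39 in progenitor replicates 1 to 5 (log2 fold change -1.9, SE 0.28, adjusted p = 0.00175). The tachykinin gene Tk was at 129 to 271 in the EC libraries and 282 to 628 in the progenitors and the prohormone convertase gene amon at 2.15 to 8.89 in the EC libraries and 11.9 to 35.6 in the progenitors, without overlap but without passing the test (adjusted p = 0.0388 and 0.0246). AstC, the allatostatin C peptide, overlapped, at 362 to 946 in the EC libraries and 256 to 1275 in the progenitors (adjusted p = 0.71). Against the EE libraries, NPF was lower by a larger margin (EE values 20534, 33830.1 and 28319.8; log2 fold change, EC minus EE, -5.63, SE 0.49, adjusted p = 9.58e-05). The hormone transcripts of the progenitor libraries were thus not at 0, and AstA-R1, a receptor for allatostatin A, fell as well (0.35 to 0.533 in the EC libraries and 2.51 to 24.9 in the progenitors; log2 fold change -2.59, SE 0.51, adjusted p = 0.00601). NPF stayed called whichever single library was left out, Rab3 was lost without EC replicate 1, and AstA-R1 stayed called only without progenitor replicate 3 or 4. AstA-R1 was under a scaled RPKM of 1 in every EC library. It passed the filter through the progenitors alone, which favoured a fall.

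**Figure D4:**
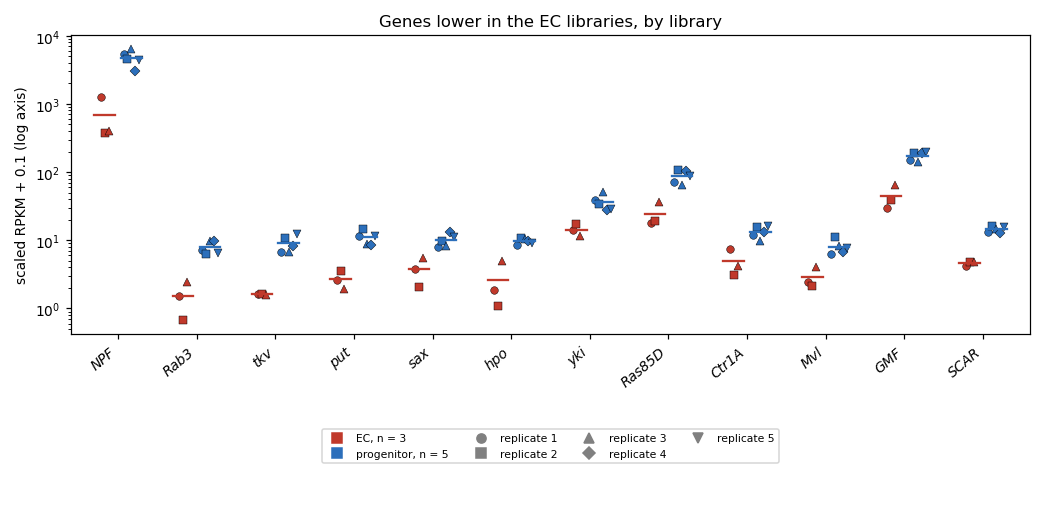
Scaled RPKM plus 0.1 (log axis) of genes lower in the EC libraries (red, n = 3) than in the progenitors (blue, n = 5), by library. Symbols give the replicate and lines the group mean. For every gene shown the highest EC library lies below the lowest progenitor library, and NPF is at 378 or more in every library.

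The 3 named receptors of the BMP pathway were lower. BMP ligands such as Dpp signal through the type I receptors Thickveins (tkv) and Saxophone (sax) and the type II receptor Punt (put), and these were the 3 called of 12 members tested, all lower and none higher (5.48% of all genes tested were lower; list median 0.02). The gene tkv was at 1.55, 1.53 and 1.5 in EC replicates 1 to 3 and 6.64, 10.8, 6.62, 8.27 and 12.1 in progenitor replicates 1 to 5 (log2 fold change -1.93, SE 0.24, adjusted p = 0.000824). Its co-receptor gene put was at 2.5, 3.49 and 1.83 in EC replicates 1 to 3 and 11.4, 14.7, 8.65, 8.42 and 11.5 in progenitor replicates 1 to 5 (log2 fold change -1.73, SE 0.25, adjusted p = 0.00167). The gene sax was at 3.67, 1.95 and 5.46 in EC replicates 1 to 3 and 7.84, 9.73, 8.19, 12.9 and 11 in progenitor replicates 1 to 5 (log2 fold change -1.27, SE 0.28, adjusted p = 0.00929). No groups overlapped, and EC replicate 3 was the highest EC library for sax alone. The number called lower was 1 without EC replicate 1, 2 without EC replicate 2, and 2 to 3 without any other single library, tkv in every case. Without EC replicate 3, 1 member of the list was called higher.

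In the Hippo pathway, which restrains growth through the kinase Hippo (hpo) and the coactivator Yorkie (yki), both of these fell and they were the only calls of 11 (median -0.43; 5.48% of all genes tested fell). The kinase gene hpo was at 1.78, 0.974 and 4.86 in EC replicates 1 to 3 and 8.4, 10.8, 10.2, 9.51 and 9.14 in progenitor replicates 1 to 5 (log2 fold change -1.73, SE 0.32, adjusted p = 0.00455), and yki was at 13.9, 17.1 and 11.6 in EC replicates 1 to 3 and 38.8, 33.7, 50.2, 28 and 28.6 in progenitor replicates 1 to 5 (log2 fold change -1.26, SE 0.25, adjusted p = 0.00627). The kinase and the coactivator it inhibits were thus lower together. The call of hpo held only without EC replicate 3 or progenitor replicate 1 or 3, and that of yki only without progenitor replicate 3.

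The EGF receptor and MAPK list moved in both directions, with 2 rises and 3 falls among 21 tested (median 0.19; 6.72% of all genes tested rose and 5.48% fell). Ras85D, the fly Ras, fell, at 17.8, 19.1 and 36.4 in EC replicates 1 to 3 and 71.6, 107, 64.2, 103 and 88.3 in progenitor replicates 1 to 5 (log2 fold change -1.84, SE 0.29, adjusted p = 0.00249). The adaptor dos (2.27 to 7.94 in the EC libraries and 13.2 to 18 in the progenitors; log2 fold change -1.55, SE 0.30, adjusted p = 0.0059) and the ERK kinase rl (0.566 to 0.905 in the EC libraries and 1.79 to 3.18 in the progenitors; log2 fold change -1.02, SE 0.21, adjusted p = 0.00663) were lower too. Since rl was under a scaled RPKM of 1 in every EC library, it passed the filter through the progenitors alone, which favoured a fall. Those that rose were the repressor aop, known as Yan (9.36 to 13.5 in the EC libraries and 1.87 to 4.73 in the progenitors; log2 fold change 1.83, SE 0.28, adjusted p = 0.00214), and the receptor inhibitor kek1 (2.85 to 5.92 in the EC libraries and 0.442 to 1.26 in the progenitors; log2 fold change 1.5, SE 0.25, adjusted p = 0.00311). Rises numbered 0 without EC replicate 1, 1 without EC replicate 2, and 2 to 4 without any other single library, and falls 0 without EC replicate 1, 0 without EC replicate 2, and 1 to 3 without any other single library.

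Wingless pathway genes were split in the same way, with 2 rises and 3 falls among 16 tested (median 0.04; 6.72% of all genes tested rose and 5.48% fell). The co-receptor arr (0.599 to 1.09 in the EC libraries and 3.01 to 5.03 in the progenitors; log2 fold change -1.38, SE 0.21, adjusted p = 0.00203) and the destruction complex scaffolds Axn (1.14 to 2.15 in the EC libraries and 3.48 to 5.42 in the progenitors; log2 fold change -1.02, SE 0.22, adjusted p = 0.00844) and Apc (0.97 to 2.18 in the EC libraries and 3.33 to 4.92 in the progenitors; log2 fold change -1.01, SE 0.23, adjusted p = 0.00952) fell. The kinases of that complex, CkIalpha at 268, 501 and 85.7 in EC replicates 1 to 3 and 39.5, 32, 27.3, 26 and 25.8 in progenitor replicates 1 to 5 (log2 fold change 2.89, SE 0.47, adjusted p = 0.00262) and sgg at 2.93 to 8.79 in the EC libraries and 1.36 to 1.84 in the progenitors (log2 fold change 1.46, SE 0.29, adjusted p = 0.00627), rose. EC replicate 3 was the lowest EC library for both kinases. None of these 5 was called without EC replicate 1 or without EC replicate 2, and Axn, Apc and sgg stayed called only without EC replicate 3.

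Of 17 insulin and TOR genes, the phosphoinositide kinase subunit Pi3K21B (14.9 to 46.3 in the EC libraries and 5.41 to 12.2 in the progenitors; log2 fold change 1.71, SE 0.38, adjusted p = 0.0093) and the secreted insulin antagonist ImpL2 (29.96 to 58.3 in the EC libraries and 7.33 to 22.2 in the progenitors; log2 fold change 1.6, SE 0.35, adjusted p = 0.00906) rose, and the adaptor Lnk fell (1.93 to 3.65 in the EC libraries and 8.36 to 11.2 in the progenitors; log2 fold change -1.5, SE 0.22, adjusted p = 0.00175), where 6.72% of all genes tested rose and 5.48% fell. Neither rise was called on the deposited scale or after quantile normalization. In the JAK/STAT list 1 of 10 rose (6.72% of all genes tested rose), Socs16D of the SOCS family (16.8 to 62.6 in the EC libraries and 10.2 to 13.2 in the progenitors; log2 fold change 1.7, SE 0.38, adjusted p = 0.00931), and it was not called under either of these scalings. The Lnk call was lost only without EC replicate 2, whereas Pi3K21B stayed called only without EC replicate 3 and ImpL2 only without EC replicate 3 or progenitor replicate 4. The Socs16D call rested on each of the 7 libraries other than EC replicate 3. The receptor gene dome lay below the progenitor range without passing (10.4 to 12.9 in the EC libraries and 17.3 to 23.6 in the progenitors; adjusted p = 0.0185). No member of the Notch pathway list passed among 14, where 12.2% of all genes tested did (median -0.32).

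**Figure D5:**
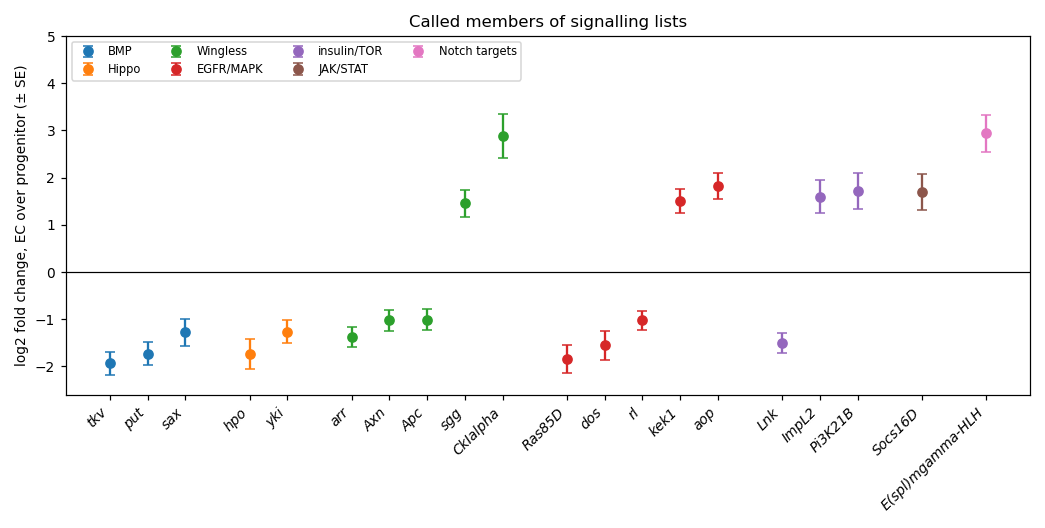
Log2 fold change (EC over progenitor) with its limma SE for the called members of the signalling lists and the 1 called Notch target. BMP and Hippo members lie below 0, whereas the Wingless and EGF receptor lists hold members on both sides.

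Of the fate genes of the progenitors few passed the test. Of 22 stem cell and enteroblast genes tested, 1 was called (12.2% of all genes tested) and it rose, the Notch target E(spl)mgamma-HLH, a transcriptional repressor, at 60.4, 52.4 and 61.6 in EC replicates 1 to 3 and 10.2, 15.3, 4.42, 3.94 and 4.51 in progenitor replicates 1 to 5 (log2 fold change 2.94, SE 0.39, adjusted p = 0.00116). The list median was -0.01. The receptor gene N itself was at 22.1 to 59.2 in the EC libraries and 13.2 to 20.8 in the progenitors (adjusted p = 0.0431), above the progenitor range in each EC library. Sox100B, a transcription factor of progenitors, overlapped, at 45.1 to 72.3 in the EC libraries and 62.7 to 153 in the progenitors (adjusted p = 0.166). The progenitor gene zfh2 (1.87 to 2.52 against 2.76 to 5.57) and the receptor gene Tre1 (13.9 to 32.5 against 37.1 to 67) lay below the progenitor range and did not pass (adjusted p = 0.0683 and 0.0211). Genes such as esg and Dl were not analysed here. Without EC replicate 1 E(spl)mgamma-HLH was not called.

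None of 15 midgut and enterocyte transcription factors was called (12.2% of all genes tested were), although 11 had a positive fold change (median 0.56). The EC libraries lay wholly above the progenitors for 3 of them (15.5% of all genes tested), namely Hnf4 (9.59 to 14.7 in the EC libraries and 5.31 to 7.13 in the progenitors; log2 fold change 0.93, SE 0.22, adjusted p = 0.0113), a nuclear receptor of lipid use, sug (2.12 to 3.63 in the EC libraries and 0.343 to 1.64 in the progenitors; log2 fold change 1.03, SE 0.27, adjusted p = 0.0184), a sugar-responsive factor, and ERR (4.4 to 5.8 in the EC libraries and 1.97 to 4.37 in the progenitors; log2 fold change 0.62, SE 0.24, adjusted p = 0.0684), a nuclear receptor of energy metabolism. The levels of CrebA (20.7 to 78.2 in the EC libraries and 6.45 to 25.5 in the progenitors) and Myc (34.3 to 230.3 in the EC libraries and 31.2 to 84.6 in the progenitors) overlapped, since EC replicate 3 fell within the progenitor range. The other 10 members had adjusted p-values above 0.05 and fold changes of -0.82 to 0.71. Among ecdysone response genes and nuclear receptors, a list made after values were seen, 5 of 15 rose (6.72% of all genes tested rose) and none fell, and 2 rose on the deposited scale. They were Eip75B (10.8 to 37 in the EC libraries and 3.29 to 6.82 in the progenitors; log2 fold change 2.05, SE 0.39, adjusted p = 0.00535), Eip93F (2.03 ± 0.46), hry (1.88 ± 0.42), the juvenile hormone receptor gene Met (1.62 ± 0.25) and Sox14 (1.24 ± 0.26), each with EC replicate 3 the lowest EC library. None of the 5 was called without EC replicate 1 or without EC replicate 2, and Eip93F and hry stayed called only without EC replicate 3.

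None of 35 cell cycle genes tested was called (median -0.00, 17 above and 18 below 0), where 12.2% of all genes were. Groups did not overlap for 4 of them (33.4% of all genes tested), with 2 above and 2 below. With array weights 5 were called higher and 4 lower, and on the deposited scale none higher and 4 lower. Of 25 DNA replication genes 1 was called (12.2% of all genes tested were), and Caf1-180, the large subunit of a chromatin assembly factor, rose (4.73 to 8.67 in the EC libraries and 0.826 to 2.33 in the progenitors; log2 fold change 1.62, SE 0.25, adjusted p = 0.00233), except without EC replicate 1. Of the histone genes 4 were tested and none passed. None of 18 heat shock and chaperone genes and none of 9 odorant-binding and chemoreceptor genes was called, against the same 12.2% (medians -0.01 and -0.38).

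Of 19 metal handling genes tested, 5 fell and none rose (median -0.17; 5.48% of all genes tested fell), and 8 had a positive fold change. The 5 were 4 transporter genes and a transcription factor. The copper importer gene Ctr1A was at 7.42, 2.95 and 4.1 in EC replicates 1 to 3 and 11.7, 15.7, 9.76, 13.2 and 16.3 in progenitor replicates 1 to 5 (log2 fold change -1.35, SE 0.28, adjusted p = 0.00759). Malvolio (Mvl), a manganese and iron transporter of the NRAMP family, was at 2.01 to 4.0 in the EC libraries and 6.29 to 11.1 in the progenitors (log2 fold change -1.24, SE 0.25, adjusted p = 0.00677). The zinc transporter genes ZnT86D (-1.16 ± 0.26) and ZnT63C (-0.99 ± 0.21) and the metal-responsive transcription factor MTF-1 (-1.09 ± 0.19) fell as well. Since MTF-1 was under a scaled RPKM of 1 in every EC library, it passed the filter through the progenitors alone, which favoured a fall. Metallothioneins, which bind surplus metal, overlapped between the groups and were dominated by EC replicate 2. There, MtnA was at 4288 and MtnE at 1939, whereas the other EC libraries had 112 to 215 and 23.6 to 92.3 and the progenitors 95.7 to 216 and 4.82 to 42.8. None of the 5 transporter and factor genes was called without EC replicate 1, EC replicate 2 or progenitor replicate 5.

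Cell adhesion to the basement membrane and the actin machinery were lower in part. Of 14 integrin and basement membrane genes 3 fell and none rose (median -0.19; 5.48% of all genes tested fell). They were rhea, the talin that ties integrins to actin (6.73, 4.99 and 6.23 in EC replicates 1 to 3 and 16.3, 17.5, 29.5, 14.9 and 16.1 in progenitor replicates 1 to 5; log2 fold change -1.47, SE 0.26, adjusted p = 0.00356), LanA, a laminin chain (18.3 to 20.3 in the EC libraries and 33.2 to 41.3 in the progenitors; log2 fold change -0.93, SE 0.19, adjusted p = 0.00677), and Zasp52 (1.56 to 1.96 in the EC libraries and 3.24 to 6.37 in the progenitors; log2 fold change -0.99, SE 0.22, adjusted p = 0.00908). Among genes of actin assembly and its regulators, a list put together after values were seen, 15 of 34 fell and 1 rose (median -0.53; 5.48% of all genes tested fell and 6.72% rose). SCAR, which activates the Arp2/3 complex, was at 4.04, 4.7 and 4.72 in EC replicates 1 to 3 and 13.1, 16.3, 14.7, 12.7 and 15.5 in progenitor replicates 1 to 5 (log2 fold change -1.49, SE 0.19, adjusted p = 0.00104). GMF, which removes actin branches (29.3 to 64.7 in the EC libraries and 142 to 197 in the progenitors; log2 fold change -2.02, SE 0.28, adjusted p = 0.00132), the kinase Src42A (-1.78 ± 0.24), Whamy (-1.57 ± 0.31), zyxin (Zyx, -1.56 ± 0.22) and both capping protein subunits (cpa -1.42 ± 0.30, cpb -1.04 ± 0.23) were also lower. The exception was the Arp2/3 subunit Arpc3B, which rose (155 to 219.7 in the EC libraries and 64 to 103 in the progenitors; log2 fold change 1.1, SE 0.23, adjusted p = 0.00786). Falls in this list numbered 1 without EC replicate 1, 4 without EC replicate 2, and 5 to 12 without any other single library, and of the integrin list none was called without EC replicate 1 or 2. LanA stayed called only without EC replicate 3, and the Zasp52 call was lost whichever single library was left out.

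In the endoplasmic reticulum, 3 of 31 genes for translocation, folding and stress fell and none rose (median -0.15; 5.48% of all genes tested fell). The stress transcription factor crc, the fly ATF4, was at 89.8, 117 and 147 in EC replicates 1 to 3 and 288, 432, 458, 358 and 434 in progenitor replicates 1 to 5 (log2 fold change -1.74, SE 0.25, adjusted p = 0.00165). Herp, a factor of protein removal from the reticulum, was at 4.12 to 6.94 in the EC libraries and 13.2 to 29.1 in the progenitors (log2 fold change -1.7, SE 0.29, adjusted p = 0.00353), and the disulfide isomerase gene ERp60 at 51 to 66.4 in the EC libraries and 94.2 to 167 in the progenitors (log2 fold change -1.21, SE 0.24, adjusted p = 0.00627). Autophagy genes, also listed after values were seen, had 2 falls of 19 (5.48% of all genes tested), the initiation genes Atg13 (-1.31 ± 0.23) and Atg14 (-1.18 ± 0.23). Neither list kept a call without EC replicate 1, and the autophagy list kept none without EC replicate 2 or progenitor replicate 2, 4 or 5.

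Of 30 glutathione S-transferases 2 rose and 2 fell, shares of 6.67% each way that were near those over all genes tested (6.72% higher, 5.48% lower). GstE2 was at 186, 139 and 173 in EC replicates 1 to 3 and 5.01, 12.5, 3.72, 10.6 and 8.37 in progenitor replicates 1 to 5, among the steadiest rises (log2 fold change 4.3, SE 0.35, adjusted p = 0.000158). GstE5 rose (1.89 ± 0.38), and GstD4 (-1.54 ± 0.30) and GstZ2 (-1.26 ± 0.26) fell. Of 38 cytochrome P450s 5 rose and 3 fell (13.2% and 7.89%, against the same 6.72% and 5.48%). Cyp6w1 was at 27.8, 33.7 and 8.73 in EC replicates 1 to 3 and 1.1, 0.403, 1.67, 0.0777 and 0.0437 in progenitor replicates 1 to 5 (log2 fold change 3.79, SE 0.45, adjusted p = 0.00074), and Cyp4p2 moved the other way at 1.31, 4.03 and 3.41 in EC replicates 1 to 3 and 25.5, 30.9, 24.1, 43.6 and 54.4 in progenitor replicates 1 to 5 (log2 fold change -3.24, SE 0.35, adjusted p = 0.000496). The other rises were Cyp9b2 (2.88 ± 0.46), Cyp309a1 (2.61 ± 0.27), Cyp6d5 (1.57 ± 0.30) and Cyp12a5 (1.35 ± 0.25), and the other falls Cyp4p1 (-2.5 ± 0.41) and Cyp6u1 (-1.26 ± 0.25). Cyp309a1 and Cyp12a5 were under a scaled RPKM of 1 in every progenitor. They passed the filter through the EC libraries alone, which fixed their sign. Of 18 UDP-glycosyltransferases Ugt36D1 rose (1.35 ± 0.21) and Ugt304A1 (-2.25 ± 0.28), Ugt302E1 (-2.05 ± 0.34) and Ugt316A1 (-1.02 ± 0.20) fell (5.56% higher and 16.7% lower). Without EC replicate 1 or 2, GstE2 was the single transferase and Ugt304A1 the single glycosyltransferase called. GstE5 stayed called only without progenitor replicate 3, GstZ2 only without progenitor replicate 5, and GstD4 only without EC replicate 3 or progenitor replicate 2. P450 rises numbered 3 without EC replicate 1, 1 without EC replicate 2, and 2 to 5 without any other single library, and falls 1 without EC replicate 1, 1 without EC replicate 2, and 2 to 3 without any other single library.

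Small nucleolar RNAs, which guide rRNA modification, had 5 called higher and 12 lower of 78 tested out of 258 matched (median -0.38). The share higher was 6.41%, near the 6.72% over all genes tested, and the share lower 15.4% against 5.48%. The lowest was snoRNA:Me28S-G2703c, at 1.03, 1.93 and 2.05 in EC replicates 1 to 3 and 39.3, 31.8, 32.2, 27.7 and 52 in progenitor replicates 1 to 5 (log2 fold change -3.8, SE 0.26, adjusted p = 7.87e-05). Its near copy snoRNA:Me28S-G2703b was at 0.504 to 1.88 in the EC libraries and 12.8 to 34.4 in the progenitors (log2 fold change -3.55, SE 0.35, adjusted p = 0.000343), and snoRNA:Me18S-U1356c fell too (-2.72 ± 0.37). The last was under a scaled RPKM of 1 in every EC library and passed the filter through the progenitors alone, which favoured a fall. Rises included snoRNA:Psi18S-1854c (4.42 to 44.9 in the EC libraries and 0 to 0.917 in the progenitors; log2 fold change 3.2, SE 0.59, adjusted p = 0.00476) and snoRNA:Psi28S-3327a (2.17 ± 0.43). Both were under a scaled RPKM of 1 in every progenitor and passed the filter through the EC libraries alone, which fixed their sign. Falls numbered 2 without EC replicate 1, 5 without EC replicate 2, and 5 to 11 without any other single library, and rises 0 without EC replicate 1, 1 without EC replicate 2, and 1 to 3 without any other single library.

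The largest rises overall were mostly genes with no assigned function. CG45080 (chromosome 3R, 13318991 to 13319270) was at 648, 1255 and 1997 in EC replicates 1 to 3 and 44.6, 0.265, 37.3, 0.443 and 0 in progenitor replicates 1 to 5 (log2 fold change 7.87, SE 1.31, adjusted p = 0.00307), so that progenitor replicates 1 and 3 carried it and the others hardly did. The noncoding lncRNA:noe (chromosome 3L, 17400272 to 17401348) was at 1063, 1911 and 267 in EC replicates 1 to 3 and 9.48, 5.18, 5.06, 15.7 and 10.3 in progenitor replicates 1 to 5 (log2 fold change 6.44, SE 0.58, adjusted p = 0.000207). CG6295 (chromosome 3R, 27005899 to 27007055), predicted to encode a lipase, was at 82.6, 81.5 and 198 in EC replicates 1 to 3 and 2.12, 0.238, 1.71, 0.767 and 0.0319 in progenitor replicates 1 to 5 (log2 fold change 5.95, SE 0.43, adjusted p = 8.52e-05). The others were CG34026 (36.6 to 269 in the EC libraries and 0.166 to 1.04 in the progenitors; log2 fold change ± SE 5.9 ± 0.52), CG5107 (215 to 777 in the EC libraries and 0.273 to 55.3 in the progenitors; 5.79 ± 1.28), CG33109 (67.5 to 478 in the EC libraries and 0.034 to 16.1 in the progenitors; 5.7 ± 0.93), CG34212 (118 to 267 in the EC libraries and 0 to 36.2 in the progenitors; 5.37 ± 1.1) and CG44476 (33.6 to 144 in the EC libraries and 0.744 to 1.17 in the progenitors; 5.0 ± 0.40), with PGRP-SC2 and Amy-p among the 10. CG45080 was lost without EC replicate 1 or 2 and CG33109 without EC replicate 1, while CG5107 and CG34212 stayed called only without progenitor replicate 1 or 3.

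Among the 10 largest falls outside small RNAs, antr, a secreted protein known from the male reproductive tract, was at 1.82, 1.37 and 2.26 in EC replicates 1 to 3 and 15.8, 17.4, 14.6, 25 and 22.4 in progenitor replicates 1 to 5 (log2 fold change -2.82, SE 0.24, adjusted p = 0.000165), and FucTA, an alpha1,3-fucosyltransferase of N-glycans, at 0.867, 1.06 and 1.34 in EC replicates 1 to 3 and 11.4, 8.33, 10.02, 13.2 and 11.5 in progenitor replicates 1 to 5 (log2 fold change -2.5, SE 0.21, adjusted p = 0.000158). The largest by fold was sordd2 (chromosome X, 15796908 to 15799162), at 0.0614, 0.115 and 10.3 in EC replicates 1 to 3 and 18.1, 30.3, 20.9, 31.8 and 31.9 in progenitor replicates 1 to 5 (log2 fold change -3.5, SE 0.67, adjusted p = 0.0056), where EC replicate 3 differed from replicates 1 and 2. CG43446 (0.12 to 0.679 in the EC libraries and 6.99 to 17.9 in the progenitors; -3.42 ± 0.31), CG6330 (18.2 to 32 in the EC libraries and 56.3 to 664 in the progenitors; -3.05 ± 0.68) and CG12464 (0.0765 to 0.173 in the EC libraries and 1.29 to 11.3 in the progenitors; -2.42 ± 0.47) had no overlap between groups, and Cyp4p2, NPF, AstA-R1 and Cyp4p1 completed the set. The sordd2 call held only without EC replicate 3 or progenitor replicate 3, that of CG6330 only without progenitor replicate 3 and that of CG12464 only without progenitor replicate 4. CG43446, CG12464 and AstA-R1 were under a scaled RPKM of 1 in every EC library. They passed the filter through the progenitors alone, which favoured a fall.

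Set against the EE libraries, part of the changes also marked EC from the other differentiated cells. Of 77 named genes that rose against progenitors and were tested against EE, 38 were also called higher against EE, 4 lower and 35 neither, where 11.2% of the 7796 genes tested were higher and 18.2% lower than in EE (29.4% either way, with groups that did not overlap for 59%). Of 49 that fell, 23 were also lower than in EE, 1 higher and 25 neither. Both comparisons share the EC libraries, so these counts are no independent evidence. Citrate synthase kdn (EE values 7.71, 8.05 and 10.7; EC minus EE 3.94, SE 0.37, adjusted p = 0.000128), GstE2 (EE values 20.7, 21.9 and 15.5; 2.96, SE 0.25, adjusted p = 8.6e-05) and Amy-p (EE values 8.14, 6.31 and 13; 3.29, SE 0.60, adjusted p = 0.00303) were higher than in both. Rises against progenitors that were called lower than in EE were those of Try29F (-2.54, SE 0.30, adjusted p = 0.000416), LysE (-1.82, SE 0.37, adjusted p = 0.00508), GstE5 (-1.82, SE 0.33, adjusted p = 0.00277) and CG34212 (-3.71, SE 0.80, adjusted p = 0.00681). The 35 called neither way included genes with EC means below and above EE, scaled over these libraries. Below were CG45080 (1231 in EC, 6407 in EE), CG33109 (210 and 2011), Mal-B1 (4.89 and 89.7) and LysB (9.11 and 40.3). Above was, for example, alphaTry (913 and 283). LanA had fallen against progenitors yet was higher than in EE (1.11, SE 0.23, adjusted p = 0.006). The receptor gene tkv was lowest in EC on both sides (-0.87, SE 0.18, adjusted p = 0.00554), whereas E(spl)mgamma-HLH was highest (2.01, SE 0.32, adjusted p = 0.0016).

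Some named genes cannot be read with full certainty. Close copies such as Amy-p and Amy-d, alphaTry and betaTry, LysB and LysE, Cyp4p1 and Cyp4p2, and the snoRNA pair above may share reads, since how the authors treated reads with several matches is not given in the sources used here. ND-B12, UQCR-Q, COX7C, tkv, hpo, Axn, aop, sgg, rhea, crc, ERp60, FucTA, SCAR, GMF, Zyx, cpa, Lpin, MTF-1, ImpL2, RpL28, eIF3k, mRpL9, Prosalpha2, Cht9, Sox14, Cyp6u1, Try29F, Hnf4, Myo31DF, key, Mal-A1, Myc, sug, ERR and zfh2 share exonic bases with an annotated neighbour, and whether strand was used in counting is not stated.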

How the data were processed

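The 8 libraries came from RNA amplified after cell sorting. The authors deposited RPKM values (reads per kilobase, scaled to library size), 1 column per library and 17490 features. The submitters' processing notes name STAR, featureCounts 1.6.3 and the BDGP6 build, with no counting settings. In the deposited values, low RPKM times exonic length came out whole within 0.05 for 98.1 to 98.5% of low values, which gave the implied read totals. An Ensembl BDGP6 annotation matched 17216 features and did not match 274. 1 feature without values was dropped.

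Groups were taken from sample titles. RPKM was scaled by median of ratios, features with a scaled RPKM of at least 1 in at least 3 libraries were kept, and log2(scaled RPKM + 1) was tested with limma 3.58.1 (R 4.3.3; lmFit, eBayes with trend, 2-sided, Benjamini-Hochberg over all genes tested). Calls needed an adjusted p under 0.01 and a log2 difference of more than 0.5 either way, as in the study's methods. A gene under a scaled RPKM of 1 in every progenitor passed the filter only through the EC libraries, which fixed its direction. Conversely, a gene under 1 in every EC library passed only through the progenitors. RPKM are not counts, so no count model was used. Amplified reads are not independent molecules, so depth speaks of counting error only. On simulated data built from these libraries with 7393 genes tested, 151 of 200 genes changed 4-fold were called in the right direction, and 2 unchanged genes were called. The changed genes were drawn from those above a set progenitor level. Noise was drawn independently for each gene and library, without spread shared between genes. The 2 counts therefore do not measure the error rate in the real libraries.

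The comparison, its members and the gene lists were chosen with earlier results of these data known, and 4 lists (tricarboxylic acid cycle, actin assembly, ecdysone response, autophagy) after values were seen. Genes named were the 10 largest rises and falls outside small RNAs with groups that did not overlap, up to 4 called genes per direction in each list, members against the trend of their list, and marker and fate genes, of which some are given as counts and ranges. A few others were named after their values were seen. Replicate numbers did not pair the libraries (correlation of deviations -0.07, 0.03 and -0.13). Lists are described by counts and medians only. Some intended members matched no feature by symbol, so their lists are incomplete. Among them were InR, Akt1, Tor and S6k (insulin and TOR), wg (Wingless), Psn and nct (Notch), Ald and Pyk (glycolysis) and Fum1 (tricarboxylic acid cycle). Sequences were not used here, and 1 gene is not reported here.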

Additional observations from a re-analysis of the deposited data

Results flagged for a closer look

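In 12 of the 158 named genes with spread among the 5 progenitor libraries, 1 progenitor library stood apart from the other 4, its gap to the nearest being more than 0.71 of the whole range (Dixon's 95% critical value for 5 samples). The rule was applied to scaled RPKM and not to the log2 values that were tested. Its rate of about 5% by chance holds for normally distributed values, so the share expected here is not known. Whether the flags hold on the log2 scale was not tested. In 8 of the 12 the library was progenitor replicate 3. It was high for digestive and immune transcripts, with lambdaTry at 9.90 scaled RPKM (the next library at 2.41), mag at 9.89 (next 1.32), PGRP-SC2 at 7.62 (next 1.64) and PGRP-SC1b at 0.109 (next 0.0195). It was also high for RpL28 at 1809 (next 1188) and rhea at 29.5 (next 17.5), and low for ZnT86D at 21.6 (next 37.9) and cpb at 112.6 (next 136.5). Progenitor replicate 1 was high for Jon74E at 10.3 (next 2.92) and CG33109 at 16.1 (next 4.49). Progenitor replicate 4 was high for Cyp9b2 at 4.31 (next 2.0) and for snoRNA:Psi28S-3327a at 0.221, where the other 4 progenitors were at 0. The snoRNA value was under the floor of 3 reads, so replicate 4 cannot be said to stand apart there. Every progenitor value of PGRP-SC1b was also far under the filter level of 1. All of these were called genes. For every called gene the groups did not overlap, so no outlying library could reach the EC range here.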

How the results depend on the processing

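With all 8 libraries, 519 genes were called higher and 423 lower. The counts became 276 and 1280 on the deposited scale, 291 and 956 when scaled to reads outside ribosomal protein and small RNA genes, 255 and 155 with no filter on low values, 309 and 225 over genes sharing no exonic base (fewer genes tested), 849 and 813 in 1 fit of the 11 wild type libraries, 1130 and 1114 with array weights, and 1255 and 1222 at an adjusted p below 0.05. With progenitor replicates 1 to 3 alone they were 127 and 67, and with replicates 4 and 5 alone 226 and 117 (fewer samples). Leaving out 1 library gave 68 to 633 higher and 43 to 523 lower. The cause of the other shifts was not tested. Quantile normalization, a pseudocount of 0.1, a filter at 3.5 and a fold threshold of 1 kept both counts within 1.5 times.

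The replicate block gave 32 higher and 6 lower. The numbers pair no libraries by the labels, and the 3 same-numbered pairs correlated at -0.07, 0.03 and -0.13 in their deviations, so no pairing was assumed.

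No called gene changed sign under any alternative. The groups of called genes did not overlap, so alternatives that left out libraries or changed weights, filters or thresholds could hardly give another sign. Of 942 called genes, those tested and still called numbered 699 on the deposited scale, 751 after quantile normalization, 865 with a pseudocount of 0.1, 109 without EC replicate 1 and 159 without EC replicate 2. AstC, which was not called, changed sign to 0.10 with array weights, 0.53 against progenitor replicates 4 and 5 alone and 0.13 without EC replicate 2 (from -0.69 to 0.13 over fits without 1 library). Depth sets a floor of 3 reads, which was 5.045e-06 to 1.24e-05% of a library's reads.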
